A study of Mus musculus with 27 samples.

Results

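The genes described here are 5 cytochrome P450 genes of the Cyp3a subfamily (Cyp3a11, Cyp3a13, Cyp3a25, Cyp3a44 and Cyp3a59) and Nr1i2, which encodes the pregnane X receptor (PXR). They were chosen by name, as the rows of the count files whose Ensembl mouse gene identifiers map to these 6 symbols, with earlier results of these data known. They make up 6 of 46078 genes counted, and all 6 were among the 16741 genes that passed the filter on low counts. Transcripts were counted by RNA-Seq in scraped epithelium of the distal ileum from 27 male C57BL/6 mice, with 3 mice in each of 9 groups. Sesame oil (vehicle, 0 µg/kg) was given to 1 group, low doses of TCDD (2,3,7,8-tetrachlorodibenzo-p-dioxin), namely 0.01, 0.03, 0.1 and 0.3 µg/kg, to 4 groups, and doses of 1, 3, 10 and 30 µg/kg to the others, by oral gavage every 4 d over 28 d. The tissue was taken on postnatal day 56. The labels name no engineered allele, and the mice were co-housed and fasted before collection, but cages are not given in the labels.

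CYP3A enzymes are monooxygenases of the endoplasmic reticulum that hydroxylate steroids, bile acids and a large share of drugs, and in the small intestine they sit in enterocytes, where they act on ingested compounds before these reach the liver. PXR is a nuclear receptor that binds bile acids, steroids and many drugs, pairs with the retinoid X receptor (RXR) and induces transcription of CYP3A genes and of transporters. TCDD acts through another receptor, the aryl hydrocarbon receptor (AhR), whose best known target is Cyp1a1. The comparisons ask whether TCDD changed the Cyp3a genes of the ileum and their regulator, and from which dose.

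Of the Cyp3a members, all but Cyp3a13 lie in 1 cluster on chromosome 5 of GRCm38. In order of position the cluster holds Cyp3a44 (ENSMUSG00000054417, chr5:145773983-145805874, - strand), Cyp3a11 (ENSMUSG00000056035, chr5:145854426-145879964, - strand), Cyp3a25 (ENSMUSG00000029630, chr5:145977194-146009618, - strand) and Cyp3a59 (ENSMUSG00000061292, chr5:146079257-146113287, + strand). Cyp3a13 (ENSMUSG00000029727, chr5:137892932-137921619, - strand) lies apart on the same chromosome. Nr1i2 (ENSMUSG00000022809, chr16:38248323-38294824, - strand) is on chromosome 16. Each Cyp3a member has 13 exons in its longest coding transcript, with 1509 or 1512 coding bases, and Nr1i2 has 9 exons and 1293 coding bases. The first 60 coding bases of the Cyp3a genes with the most reads, and of Cyp3a44, show where these paralogs differ at the coding start. They were read from the GENCODE M21 transcripts on GRCm38, written 5′ to 3′, with capitals where a base differs from the Cyp3a11 base at the same position.
Cyp3a11: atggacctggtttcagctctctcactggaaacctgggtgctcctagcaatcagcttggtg
Cyp3a44: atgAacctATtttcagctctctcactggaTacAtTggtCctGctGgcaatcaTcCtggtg
Cyp3a13: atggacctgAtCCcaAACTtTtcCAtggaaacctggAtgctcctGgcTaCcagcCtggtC
Cyp3a25: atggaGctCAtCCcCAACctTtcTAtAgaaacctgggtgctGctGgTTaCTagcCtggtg
Cyp3a44 differed from Cyp3a11 at 11 of these 60 bases, Cyp3a13 at 16 and Cyp3a25 at 20. The first 60 coding bases of Cyp3a59 are the same as those of Cyp3a25.

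Shared sequence decides which reads could be given to 1 gene. Over the whole coding sequence, Cyp3a25 and Cyp3a59 were 97.5% identical and Cyp3a11 and Cyp3a44 were 94.9% identical, while Cyp3a13 was 76.7% identical to Cyp3a11 and 76.8% to Cyp3a25. The longest stretch shared without a difference is shown for each near-identical pair of members, since a read inside it fits both genes equally. The stretch of Cyp3a11 and Cyp3a44 spans exons 6 and 7 of both, with its ends at chr5:145868591-145868965 in Cyp3a11 (- strand), and that of Cyp3a25 and Cyp3a59 spans exons 5 and 6, with its ends at chr5:145993283-145994947 in Cyp3a25 (- strand), introns not printed.
Cyp3a11 and Cyp3a44 (104 bases): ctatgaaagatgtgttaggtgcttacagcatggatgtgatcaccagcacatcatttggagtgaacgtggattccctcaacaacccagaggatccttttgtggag
Cyp3a25 and Cyp3a59 (162 bases): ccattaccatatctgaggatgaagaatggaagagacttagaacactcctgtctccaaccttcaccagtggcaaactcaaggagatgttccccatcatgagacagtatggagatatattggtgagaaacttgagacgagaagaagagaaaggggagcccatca
Of all stretches of 50 bases in the longest coding transcript of a gene, 14.8% in Cyp3a11, 26.8% in Cyp3a25, 26.5% in Cyp3a44 and 28.0% in Cyp3a59 also occurred in a transcript of another gene, and 0 of 2907 did in Cyp3a13 and 0 of 2504 in Nr1i2. The reads of Cyp3a13 and Nr1i2 could therefore be placed at any position by this measure, while a share of the reads of the other 4 members could not. With stretches of 100 bases the shares fell to between 0.3% and 6.0% in those 4 genes, and with stretches of 36 bases they were between 28.3% and 42.9%. Paralogs outside the 6 members took part in this. Cyp3a44 shared 220 stretches of 50 bases with Cyp3a41a and 202 with the pseudogene Cyp3a63-ps, against 133 with Cyp3a11. Cyp3a11 shared 145 with Cyp3a41a. Counts of Cyp3a25 against Cyp3a59, and of Cyp3a11 and Cyp3a44 against each other and these paralogs, are accordingly uncertain. The counting options are not given in the sources used here.

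**Figure D1:**
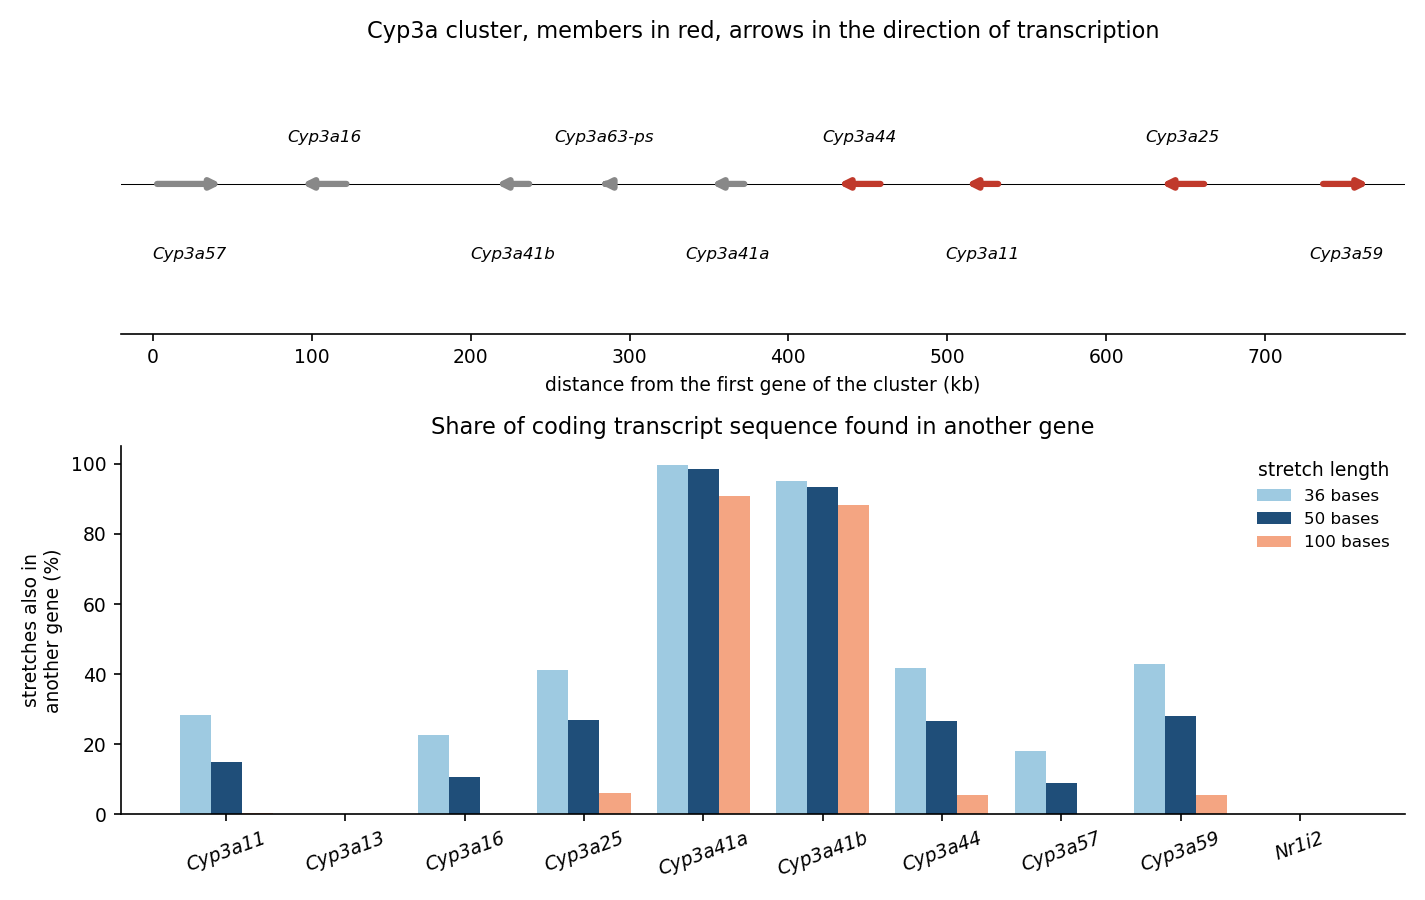
Upper panel, positions of the Cyp3a genes of the chromosome 5 cluster by distance in kb from its first gene, with members in red and arrows in the direction of transcription (Cyp3a13 lies outside). Lower panel, percentage of stretches of 36, 50 or 100 bases of the longest coding transcript that occur in another gene; Cyp3a41a and Cyp3a41b share over 88% of theirs at each length, Cyp3a13 and Nr1i2 share 0.

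The promoters of Cyp3a11, Cyp3a44, Cyp3a25 and Cyp3a13 are shown because PXR with RXR binds pairs of hexamers related to AGGTCA or AGTTCA. RefSeq promoter sequences (GRCm38.p6) were matched by symbol for 6 of 6 members, and the 250 bases before each start were searched on both strands, with capitals marking AGGTCA or AGTTCA or their reverse complements.
Cyp3a11 (chr5:145879855-145880104, - strand): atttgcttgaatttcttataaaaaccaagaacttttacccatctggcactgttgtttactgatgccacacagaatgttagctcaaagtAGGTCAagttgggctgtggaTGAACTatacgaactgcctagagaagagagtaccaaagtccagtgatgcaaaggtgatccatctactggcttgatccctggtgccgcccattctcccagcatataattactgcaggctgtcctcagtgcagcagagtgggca
Cyp3a44 (chr5:145805875-145806124, - strand): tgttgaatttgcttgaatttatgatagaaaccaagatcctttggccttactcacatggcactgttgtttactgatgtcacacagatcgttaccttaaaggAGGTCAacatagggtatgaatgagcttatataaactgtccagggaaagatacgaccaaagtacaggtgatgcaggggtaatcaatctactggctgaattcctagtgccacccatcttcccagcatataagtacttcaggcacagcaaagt
Cyp3a25 (chr5:146009619-146009868, - strand): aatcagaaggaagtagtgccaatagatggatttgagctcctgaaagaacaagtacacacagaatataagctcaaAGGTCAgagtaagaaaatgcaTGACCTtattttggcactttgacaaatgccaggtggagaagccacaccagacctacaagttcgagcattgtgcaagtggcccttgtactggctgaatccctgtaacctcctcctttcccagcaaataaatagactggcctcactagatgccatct
Cyp3a13 (chr5:137921620-137921869, - strand): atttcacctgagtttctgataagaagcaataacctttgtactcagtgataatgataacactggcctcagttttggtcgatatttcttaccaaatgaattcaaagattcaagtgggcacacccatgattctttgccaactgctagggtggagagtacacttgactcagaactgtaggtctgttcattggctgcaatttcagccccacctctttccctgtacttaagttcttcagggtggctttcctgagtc
Cyp3a11 held 1 AGGTCA and 1 AGTTCA, and Cyp3a44 held 1 AGGTCA. Cyp3a25 held 2 AGGTCA, as did Cyp3a59, whose promoter was 94.8% identical to that of Cyp3a25. Cyp3a13 and Nr1i2 held neither hexamer. Among 27025 mouse promoters of this length, 13.8% held AGGTCA and 11.9% held AGTTCA. The core GCGTG of AhR binding sites was in 0 of the 6 member promoters and in 28.2% of all promoters. These matches describe the letters in the window and say nothing of binding. The promoters of Cyp3a11 and Cyp3a44 were 72.1% identical, less than their coding sequences.

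Libraries held 12.26 to 17.14 M reads on genes (median 14.14 M), given below as CPM (reads per 1 M reads on genes) after TMM scaling, which divides by the library total corrected for differences in composition. Cyp1a1 was at 0 to 0.887 CPM in the 15 mice given up to 0.3 µg/kg, and rose to 1060, 1880 and 2280 CPM in the 3 mice at 30 µg/kg. Enterocyte markers (Vil1, Alpi, Fabp2, Sis and Anpep) summed to 15150 CPM or more in each mouse and distal ileum markers (Fabp6, Slc10a2 and Slc51b) to 1400 CPM or more, as the tissue label requires. Of the hepatocyte markers, Alb, Ahsg and Fga stayed at or below 0.286 CPM, while Serpinc1 was at 2.54 to 7.58 CPM. Taken in order of mouse number, which rises with dose, 11 libraries carried an index sequence already used (second use) and 16 did not (first use). Whether index use marks a sequencing run is not stated. The second use holds 2 of the 3 mice at 1 µg/kg and all mice at 3, 10 and 30 µg/kg. Where 3, 10 or 30 µg/kg is set against vehicle, index use and dose therefore cannot be told apart. The vehicle and low-dose libraries were all in the first use. In these scrapings of mixed cells, fewer cells of a type and less RNA per cell cannot be told apart. Nothing in the labels says more of how the 3 mice of a dose were raised, so p-values measure the spread between these mice. A mouse is called 1, 2 or 3 within its dose only to name it.

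Cyp3a13 had the highest level of the 5 Cyp3a members in 27 of 27 mice. On the scale of CPM per kb of the longest coding transcript, its level in vehicle mice was 126 ± 8.32 (SD, n = 3), against 41.9 ± 8.48 for Cyp3a25 and 28.8 ± 8.35 for Cyp3a11. Cyp3a44 followed at 3.73 ± 1.27 CPM per kb and Cyp3a59 at 0.368 ± 0.12 CPM per kb. Nr1i2 had a level of 40.1 ± 0.815 CPM per kb. The levels of Cyp3a25, Nr1i2 and Cyp3a11 were neighbours in this order and changed places between mice, whereas Cyp3a13 was the highest, Cyp3a44 next to lowest and Cyp3a59 the lowest in each of the 27 mice. Cyp3a13 made up 56.93% to 84.57% of the summed CPM per kb of the 5 Cyp3a members (median 63.38%), Cyp3a25 a median of 17.76% and Cyp3a11 a median of 16.05%. When only the positions not shared with another gene were counted as length, the vehicle levels were 128 ± 8.46 CPM per kb for Cyp3a13, 58.7 ± 11.9 for Cyp3a25 and 34.6 ± 10.0 for Cyp3a11, in the same order.

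The other Cyp3a genes of the cluster were near or at 0. Cyp3a57 had 10 reads over all 27 mice and Cyp3a16, known from fetal liver, had 3 reads, both under the filter. Cyp3a41a and Cyp3a41b, which are known from female liver, and the pseudogene Cyp3a63-ps had 0 reads in 27 mice. A count of 0 in 383.7 M reads allows up to 3 reads, or 0.00782 CPM over all mice, for counting error only. For Cyp3a41a and Cyp3a41b this limit holds only for reads that fit 1 gene, since 98.6% and 93.5% of their stretches of 50 bases occur elsewhere.

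Cyp3a13 passed the test at 30 µg/kg, with a higher mean than vehicle, and none of the other 5 genes passed it at any dose. Cyp3a13 was at 349, 368 and 398 CPM in the vehicle mice (372 ± 24.6, SD, n = 3). At 30 µg/kg it was at 277, 941 and 737 CPM (652 ± 340). Mice 2 and 3 lay above each vehicle mouse and mouse 1 lay below each of them, so the groups overlapped. The mean was 1.75-fold that of vehicle (log2 fold change 0.81, SE 0.275, edgeR quasi-likelihood test, Benjamini-Hochberg adjusted p = 0.0469, 95% interval of the fold 1.18 to 2.61). A gene was called at an adjusted p of at most 0.05 with a change of at least 1.5-fold, and 9.23% of the 16741 genes tested were called in this comparison, against 1 of the 6 members. The call rested on single mice. Without mouse 1 at 30 µg/kg the log2 fold change was 1.14 (edgeR adjusted p = 7.36e-05), without mouse 2 it was 0.45 (edgeR adjusted p = 0.344) and without mouse 3 it was 0.71 (edgeR adjusted p = 0.145). With library index use as a covariate the gene was not called, though the log2 fold change was no smaller, at 0.88 (edgeR adjusted p = 0.403). Only the mice at 1 µg/kg held both index uses. That fit therefore has little information on index use and cannot tell it from dose.

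At 3 µg/kg, Cyp3a13 was at 485, 541 and 536 CPM, and each of these 3 mice lay above each vehicle mouse. The log2 fold change was 0.49, or 1.40-fold, which is under the minimum of 1.5-fold, and did not pass the test (SE 0.274, edgeR adjusted p = 0.468). Fitted on the 6 mice of this comparison alone, it had an edgeR adjusted p of 0.00134 at a log2 fold change of 0.49, still under the fold minimum. The exact permutation test of the 3 mice against the 3 vehicle mice gave p = 0.1 (two-sided), the smallest that 3 against 3 can give. Such separation was looked for in each of the 6 members at each of 8 doses. The permutation p was not adjusted for this, so some separations would occur with no effect of dose. In this comparison 0.998% of genes were called and 0 of the 6 members. Cyp3a13 at 10 µg/kg was at 329, 413 and 473 CPM, around the vehicle values, and its log2 fold change was 0.12 (edgeR adjusted p = 0.879). At 1 µg/kg it was at 380, 356 and 370 CPM, within the vehicle range, and in the 12 mice at the 4 lower doses it ran from 270.5 to 458 CPM. The 3 mice at 0.01 µg/kg, at 410, 447 and 410 CPM, also lay above each vehicle mouse (exact permutation p = 0.1, the smallest possible). The order of the group means from 3 to 30 µg/kg was thus not one of steady rise, as 10 µg/kg lay below 3 µg/kg. Across the dose ranks Cyp3a13 had a slope of 0.07 per step on the log2 scale (edgeR adjusted p = 0.0438), a slope that comes to less than 1.5-fold over the 8 steps and is not a call. In that trend test 9.65% of all genes were called and 0 of the 6 members. Within the mice of the first index use the slope of Cyp3a13 was -0.02 and within those of the second 0.21 per step, with edgeR adjusted p of 0.905 and 0.534.

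**Figure D2:**
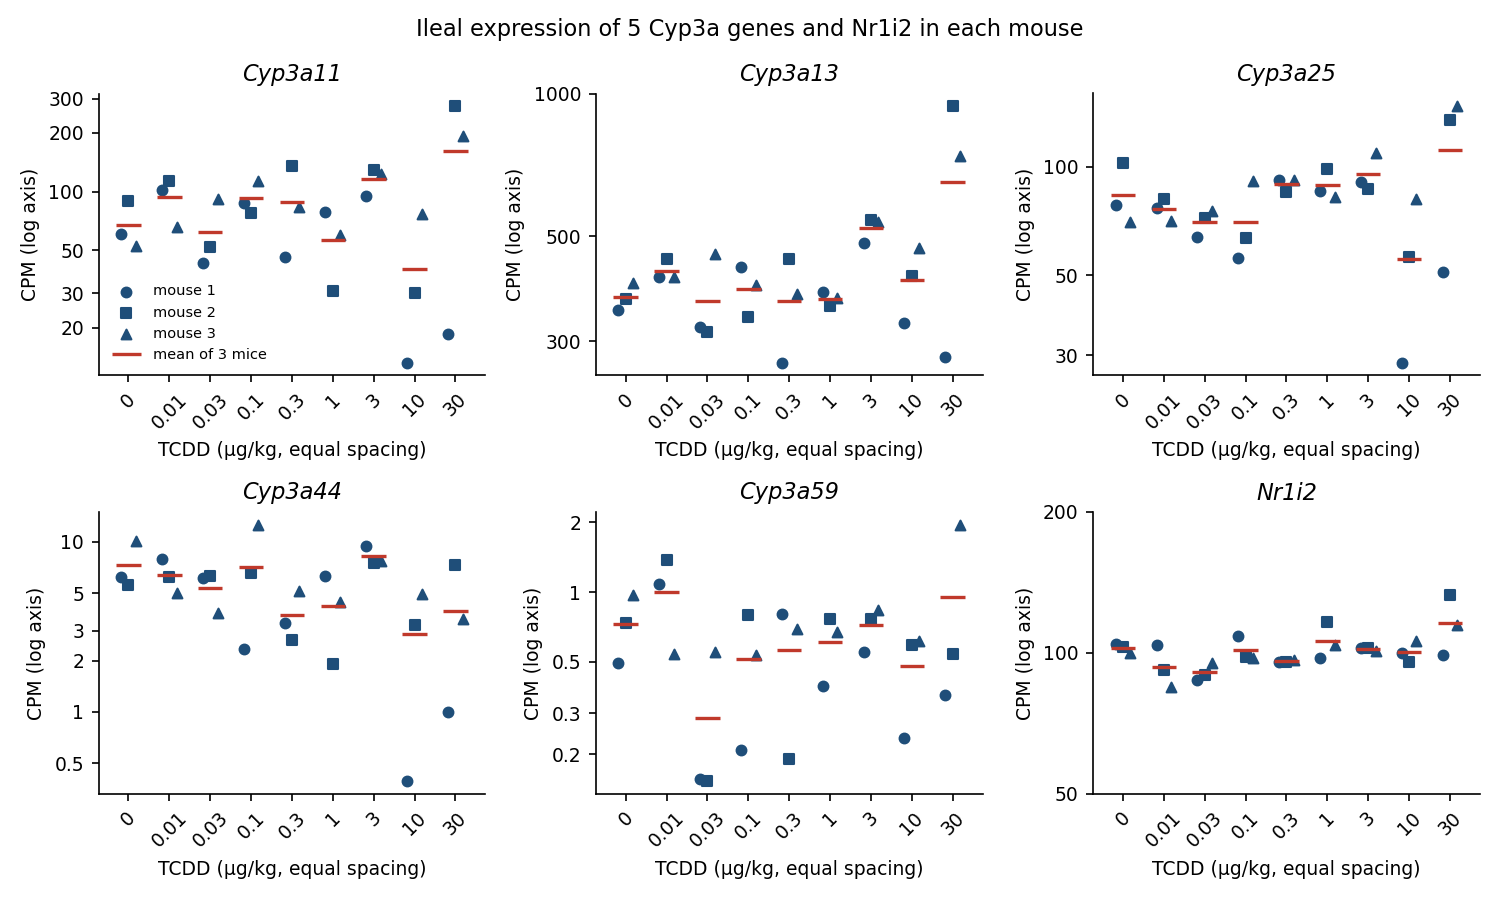
CPM of each member (y axis, log scale) in each of 27 mice by TCDD dose in µg/kg (x axis, equal spacing), with symbols for the 3 mice of a dose and a red line at their mean. Cyp3a13 at 3 µg/kg sits above the vehicle mice, and at 30 µg/kg mouse 1 is low and mice 2 and 3 high in Cyp3a11, Cyp3a13 and Cyp3a25.

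Cyp3a11, the main CYP3A of mouse liver and the usual readout of PXR activity, varied more between mice of 1 dose than it did between most doses. In the vehicle mice it was at 60.5, 89.7 and 52.5 CPM (67.6 ± 19.6, SD, n = 3). At 10 µg/kg it was at 13.3, 30.1 and 77.0 CPM, with 2 of the 3 mice below each vehicle mouse. At 30 µg/kg it was at 18.6, 274 and 192 CPM, with mouse 1 below and mice 2 and 3 above each vehicle mouse. The highest mouse at 30 µg/kg thus had 14.7 times the level of the lowest. At 3 µg/kg, by contrast, the 3 mice were close together at 95.4, 128 and 123 CPM, and each lay above each vehicle mouse (exact permutation p = 0.1, the smallest possible). No dose passed the test. The log2 fold change was 0.77 at 3 µg/kg (SE 0.673, edgeR adjusted p = 0.684), -0.75 at 10 µg/kg (SE 0.686, edgeR adjusted p = 0.64) and 1.26 at 30 µg/kg (SE 0.678, edgeR adjusted p = 0.219). The 95% interval of the fold at 30 µg/kg ran from 0.892 to 6.40, so neither a small decrease nor a large increase could be told from no change. Without mouse 1 at 30 µg/kg Cyp3a11 passed the test at a log2 fold change of 1.76 (edgeR adjusted p = 0.0239), and without mouse 2 the estimate was 0.64 (edgeR adjusted p = 0.661).

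Cyp3a25, a CYP3A best known from liver, had about as many reads as Cyp3a11 (31635 against 32852 over all mice). It was at 78.6, 103 and 70.2 CPM in vehicle mice (83.9 ± 17.0, SD, n = 3) and at 51.0, 135 and 147 CPM at 30 µg/kg. At 10 µg/kg it was at 28.6, 56.3 and 81.7 CPM. As with Cyp3a11, mouse 1 was the lowest at both doses, and 2 of 3 mice at 10 µg/kg lay below each vehicle mouse. The log2 fold change was -0.59 at 10 µg/kg (SE 0.322, edgeR adjusted p = 0.372) and 0.41 at 30 µg/kg (SE 0.319, edgeR adjusted p = 0.418). At this dose of 10 µg/kg 2.44% of all genes were called, and 0 of the 6 members. At 0.3, 1 and 3 µg/kg Cyp3a25 stayed between 82.5 and 109 CPM.

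Cyp3a44, known for higher expression in female than in male mouse liver, had a lower mean than vehicle at each dose but 3 µg/kg. It was at 6.20, 5.58 and 10.2 CPM in vehicle mice, from 76 to 147 reads. At 10 µg/kg it was at 0.392, 3.23 and 4.94 CPM, from 5 to 64 reads, and at 30 µg/kg at 1.00, 7.27 and 3.50 CPM. At 3 µg/kg it was at 9.43, 7.49 and 7.75 CPM, within the vehicle range. The log2 fold change was -1.35 at 10 µg/kg (SE 0.656, edgeR adjusted p = 0.303, 95% interval of the fold 0.152 to 1.02) and -0.91 at 30 µg/kg (SE 0.64, edgeR adjusted p = 0.362). The 3 mice at 0.3 µg/kg, at 3.33, 2.66 and 5.13 CPM, also lay below each vehicle mouse (exact permutation p = 0.1, the smallest possible), with a log2 fold change of -0.98 (edgeR adjusted p = 0.783). The slope across dose ranks was -0.10 per step (edgeR adjusted p = 0.255).

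Cyp3a44 and Cyp3a11 are near-identical members of the cluster, though the coding sequence of Cyp3a41a was nearer to each (95.8% and 95.2% identical). The reads of Cyp3a44 and Cyp3a11 were set against each other in each mouse, a ratio chosen after the values were seen. Cyp3a44 had 10.2%, 6.21% and 19.4% of the reads of Cyp3a11 under vehicle and 5.38%, 2.65% and 1.82% at 30 µg/kg, so each mouse at 30 µg/kg lay below each vehicle mouse. The geometric mean of the ratio at 30 µg/kg was 0.276 times that of vehicle (exact permutation p = 0.1, two-sided, the smallest possible). The percentages at 10 µg/kg were 2.96%, 10.7% and 6.41%, and at 3 µg/kg 9.89%, 5.83% and 6.30%, both overlapping the vehicle mice.

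Cyp3a59 was at the edge of detection, at 2 to 24 reads per mouse. It was at 0.493, 0.734 and 0.969 CPM under vehicle and at 0.358, 0.541 and 1.95 CPM at 30 µg/kg, where mouse 3 stood highest of all 27. The log2 fold change was 0.35 at 30 µg/kg (SE 0.583, edgeR adjusted p = 0.731) and -0.58 at 10 µg/kg (edgeR adjusted p = 0.703). A change of this gene was not detectable at this depth unless large, as the 95% interval at 30 µg/kg spanned 0.555 to 2.93-fold. Its 537 stretches of 50 bases shared with Cyp3a25, which had 31635 reads over all mice against its 247, make its few reads the least certain of the 6.

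Nr1i2, in contrast with the Cyp3a genes, kept a narrow range. PXR transcripts were at 104, 103 and 100.2 CPM in vehicle mice (102.5 ± 2.08, SD, n = 3) and between 84.8 and 133 CPM in all 27 mice. At 30 µg/kg they were at 98.9, 133 and 115 CPM, with mouse 1 below and mice 2 and 3 above each vehicle mouse. The log2 fold change was 0.17 at 30 µg/kg (SE 0.0908, edgeR adjusted p = 0.196), with a 95% interval of the fold from 0.991 to 1.28. The interval at 10 µg/kg was 0.862 to 1.12-fold and at 3 µg/kg 0.873 to 1.13-fold, so a change of 1.5-fold in either direction lay outside each of these intervals. At 0.03 and 0.3 µg/kg all 3 mice lay slightly below each vehicle mouse, at 87.7 to 95.4 and 95.5 to 96.4 CPM (exact permutation p = 0.1 each, the smallest possible). The slope across dose ranks was 0.02 per step (edgeR adjusted p = 0.0518).

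**Figure D3:**
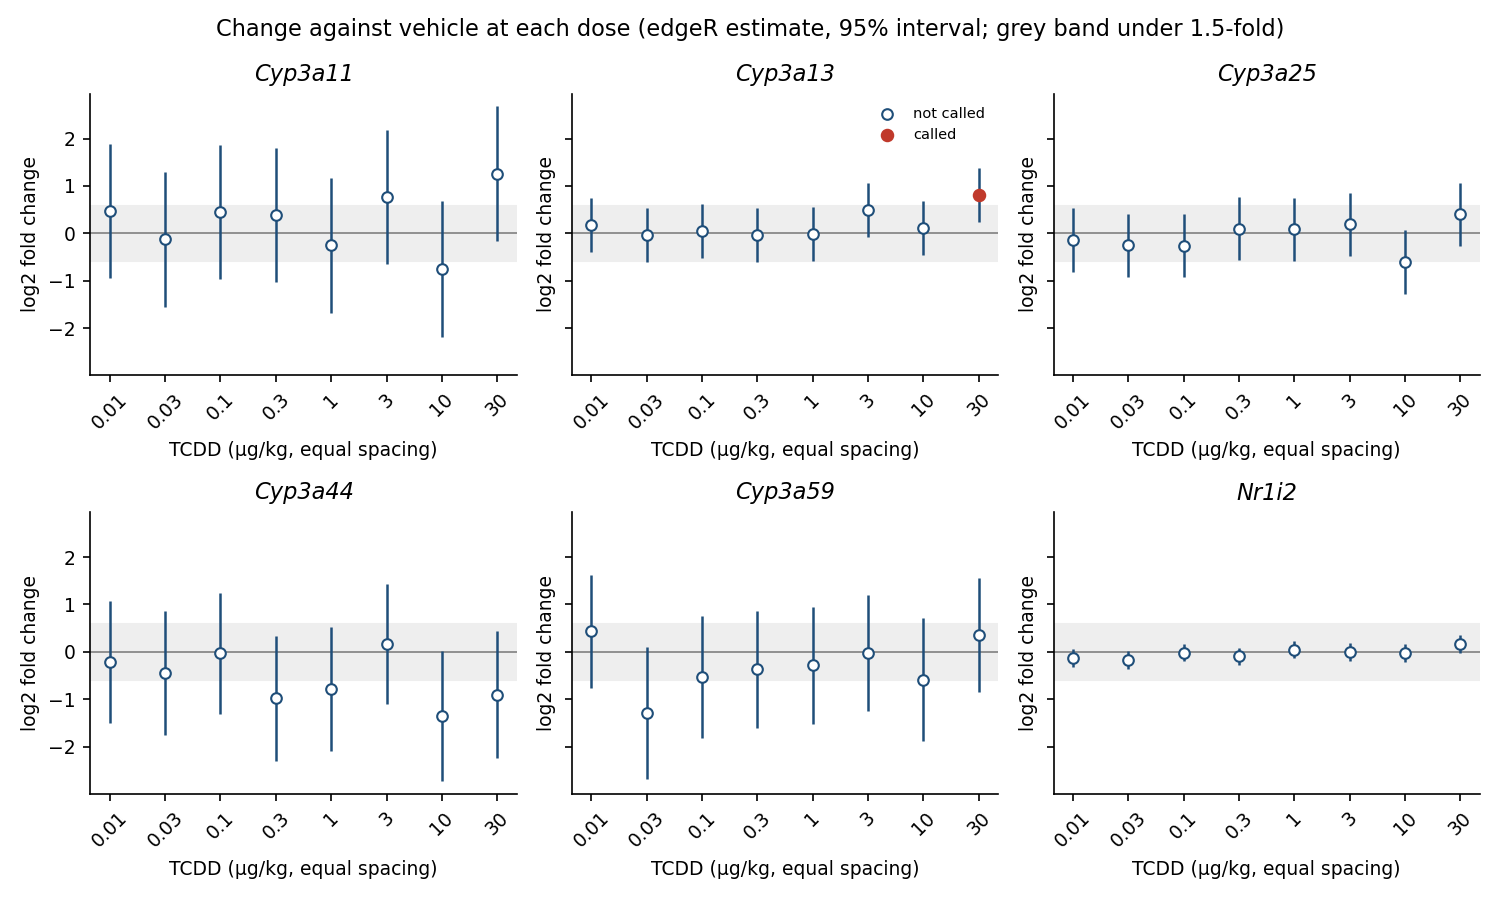
Log2 fold change against vehicle (y axis) at each TCDD dose in µg/kg (x axis, equal spacing) for the 6 members, as edgeR estimates with 95% intervals and a grey band for changes under 1.5-fold. The filled red point, Cyp3a13 at 30 µg/kg, is the single call; the intervals of Nr1i2 are the narrowest.

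The lower doses moved none of the 6 genes past the test. With the 0.01, 0.03, 0.1 and 0.3 µg/kg groups averaged against vehicle, 0% of genes were called by edgeR (1042 of 16741 had an unadjusted p under 0.05, and DESeq2 called 11), and the log2 fold changes of the members ran from -0.44 for Cyp3a59 to 0.30 for Cyp3a11. Over the 24 tests of a member at a single low dose the smallest edgeR adjusted p was 0.783. At 1 µg/kg 0.544% of genes were called and 0 of the 6 members, with log2 fold changes from -0.78 for Cyp3a44 to 0.09 for Cyp3a25. Between 3 and 30 µg/kg, where index use was the same, 0.836% of genes were called and again 0 of the 6, with log2 fold changes of 0.32 for Cyp3a13 (edgeR adjusted p = 0.665), 0.48 for Cyp3a11 (edgeR adjusted p = 0.814) and -1.07 for Cyp3a44 (edgeR adjusted p = 0.5). The test of any difference among the 9 groups called 9.4% of genes and 0 of the 6 members, with the smallest adjusted p at 0.18 for Nr1i2 and 0.234 for Cyp3a13. The median log2 fold change of the 6 members was 0.38 at 30 µg/kg and -0.59 at 10 µg/kg, against 0.02 and -0.003 over all genes tested.

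The spread between mice of the same dose set the Cyp3a genes apart from Nr1i2 as a description. The biological coefficient of variation that edgeR estimated was 0.556 for Cyp3a11, 0.547 for Cyp3a44, 0.405 for Cyp3a59, 0.269 for Cyp3a25 and 0.232 for Cyp3a13, and 0.086 for Nr1i2, against a median of 0.141 over all genes. The value of Cyp3a11 was above that of 99.6% of the 1625 genes whose mean log2 CPM was within 0.5 of its own, and that of Cyp3a13 above 96.1% of 282 such genes. Nr1i2 was above 36.3% of 1478 such genes. Cyp3a59 was above 84.6% of 2058 such genes, whose median was 0.292, so its spread stood out less. The spread also differed between doses. For Cyp3a13 the SD was 52.1% of the mean at 30 µg/kg and 3.35% to 24.4% in the other groups. For Cyp3a11 it was 82.3% at 10 µg/kg and 80.7% at 30 µg/kg, and 15.3% to 50.3% in the others.

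Cyp3a11 varied with Cyp3a13, Cyp3a25 and Cyp3a44. Over the 27 mice, which share library and composition between genes, Pearson's r of log2 CPM was 0.77 between Cyp3a11 and Cyp3a13, 0.78 between Cyp3a11 and Cyp3a25 and 0.65 between Cyp3a11 and Cyp3a44. With the mean of each dose removed, the values were 0.91, 0.81 and 0.66. Cyp3a11 and Cyp3a13 thus varied in parallel among mice of the same dose, though they share no stretch of 50 bases. Cyp3a59, with few reads, had r = 0.37 with Cyp3a11 and 0.36 with Cyp3a13, and Cyp3a13 had r = 0.30 with Cyp3a44. Nr1i2 had r = 0.60 with Cyp3a13 and 0.34 with Cyp3a11. The 3 genes whose pattern was most like that of Cyp3a11 were Akr1b7 (r = 0.904), an aldo-keto reductase of the list of PXR-induced genes, Glrx (0.897), a glutaredoxin, and 2010106E10Rik (0.895). Those most like Cyp3a13 included Dpp4 (0.926), a peptidase of the enterocyte brush border, and Slc27a4 (0.925), a fatty acid transporter. Cyp3a25 was most like Ces2e (0.811), a carboxylesterase, Cat (0.804), catalase, and Rwdd2b (0.798). Cyp3a44 was most like Ppp2cb (0.772), a phosphatase subunit, Aldh1a1 (0.766), a retinal dehydrogenase, and Ces2a (0.756), another carboxylesterase. Cyp3a59 was most like Tmem167b (0.629), Hspbap1 (0.62) and Klf10 (0.575). Nr1i2 was most like Pcsk5 (0.881), a proprotein convertase, Dgkq (0.87), a diacylglycerol kinase, and Patj (0.864), a protein of tight junctions.

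Markers of enterocytes moved with Cyp3a13, Cyp3a11 and Cyp3a25. The sum of the 5 enterocyte markers was 16386, 17649 and 15682 CPM under vehicle and 15150, 34143 and 28954 CPM at 30 µg/kg, and at 30 µg/kg it was lowest and highest in the same mice as Cyp3a13. Of these markers Sis, sucrase-isomaltase, was called at 30 µg/kg (log2 fold change 1.4, edgeR adjusted p = 0.000448) and the other 4 were not. The correlation of the log2 sum with log2 CPM, with dose means removed, was 0.92 for Cyp3a13, 0.87 for Cyp3a11, 0.71 for Cyp3a25, 0.63 for Nr1i2, 0.43 for Cyp3a44 and 0.17 for Cyp3a59 over 27 mice of shared libraries. Set against this sum, in a ratio chosen after the values were seen, Cyp3a13 came to 2.13%, 2.08% and 2.54% in vehicle mice and to 1.83%, 2.76% and 2.55% at 30 µg/kg. These ratios overlapped, with means of 2.25% ± 0.25 and 2.38% ± 0.485 (SD, n = 3). For Cyp3a11 the ratio was 0.369%, 0.508% and 0.335% in vehicle mice and 0.123%, 0.802% and 0.664% at 30 µg/kg, still with mouse 1 below and mice 2 and 3 above. The ratio of Cyp3a44 at 30 µg/kg, at 0.00662%, 0.0213% and 0.0121%, lay below each vehicle mouse, at 0.0378%, 0.0316% and 0.0649%. This was not particular to 30 µg/kg. At 0.3, 1 and 10 µg/kg each mouse also lay below each vehicle mouse, with highest ratios of 0.0306%, 0.0307% and 0.021%. The remaining doses, 3 µg/kg among them, overlapped the vehicle mice. The part of the enterocyte markers in the change of Cyp3a13 was not tested.

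Other marker lists also differed between these mice. The sum of 4 markers that are higher in the proximal small intestine (Fabp1, Lct, Gata4 and Rbp2) was 73.1, 157 and 68.1 CPM under vehicle and 82.2, 358 and 163 CPM at 30 µg/kg, and 1 of the 4, Fabp1, was called. Its correlation with Cyp3a13, dose means removed, was 0.67. The sum of 5 smooth muscle markers was 102, 23.5 and 40.1 CPM under vehicle, 232, 356 and 42.8 CPM at 10 µg/kg and 322, 74.3 and 34.9 CPM at 30 µg/kg, with 0 of 5 called. It was thus highest at 30 µg/kg in mouse 1, where the Cyp3a genes were lowest. The sum of 4 crypt markers was 374, 301 and 416 CPM under vehicle and 334, 159 and 184 CPM at 30 µg/kg, with 2 of 4 called as lower (Lgr5 and Pcna). It correlated with Nr1i2 at -0.82 with dose means removed. Distal ileum markers summed to 2438, 2362 and 2123 CPM under vehicle and 2048, 1598 and 1400 CPM at 30 µg/kg, without overlap. Of these 3 markers Fabp6 was called lower (log2 fold change -0.943, edgeR adjusted p = 0.0168) and Slc10a2 higher (0.746, edgeR adjusted p = 0.047). Immune markers summed to 474, 361 and 318 CPM under vehicle and 194, 197 and 242 CPM at 30 µg/kg, also without overlap. Of the 5 immune markers 1, Jchain, was called lower. The sum of 4 goblet markers was 20697, 23403 and 23033 CPM under vehicle and 31724, 29091 and 30966 CPM at 30 µg/kg, without overlap. Each of the 4 had an edgeR adjusted p of 0.0152 or less at log2 fold changes of 0.45 to 0.49, under the fold minimum for a call. No Paneth marker was called at 30 µg/kg, and of the hepatocyte markers only Serpinc1 was tested and it was not called. Their part in the values of the Cyp3a genes was not tested.

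**Figure D4:**
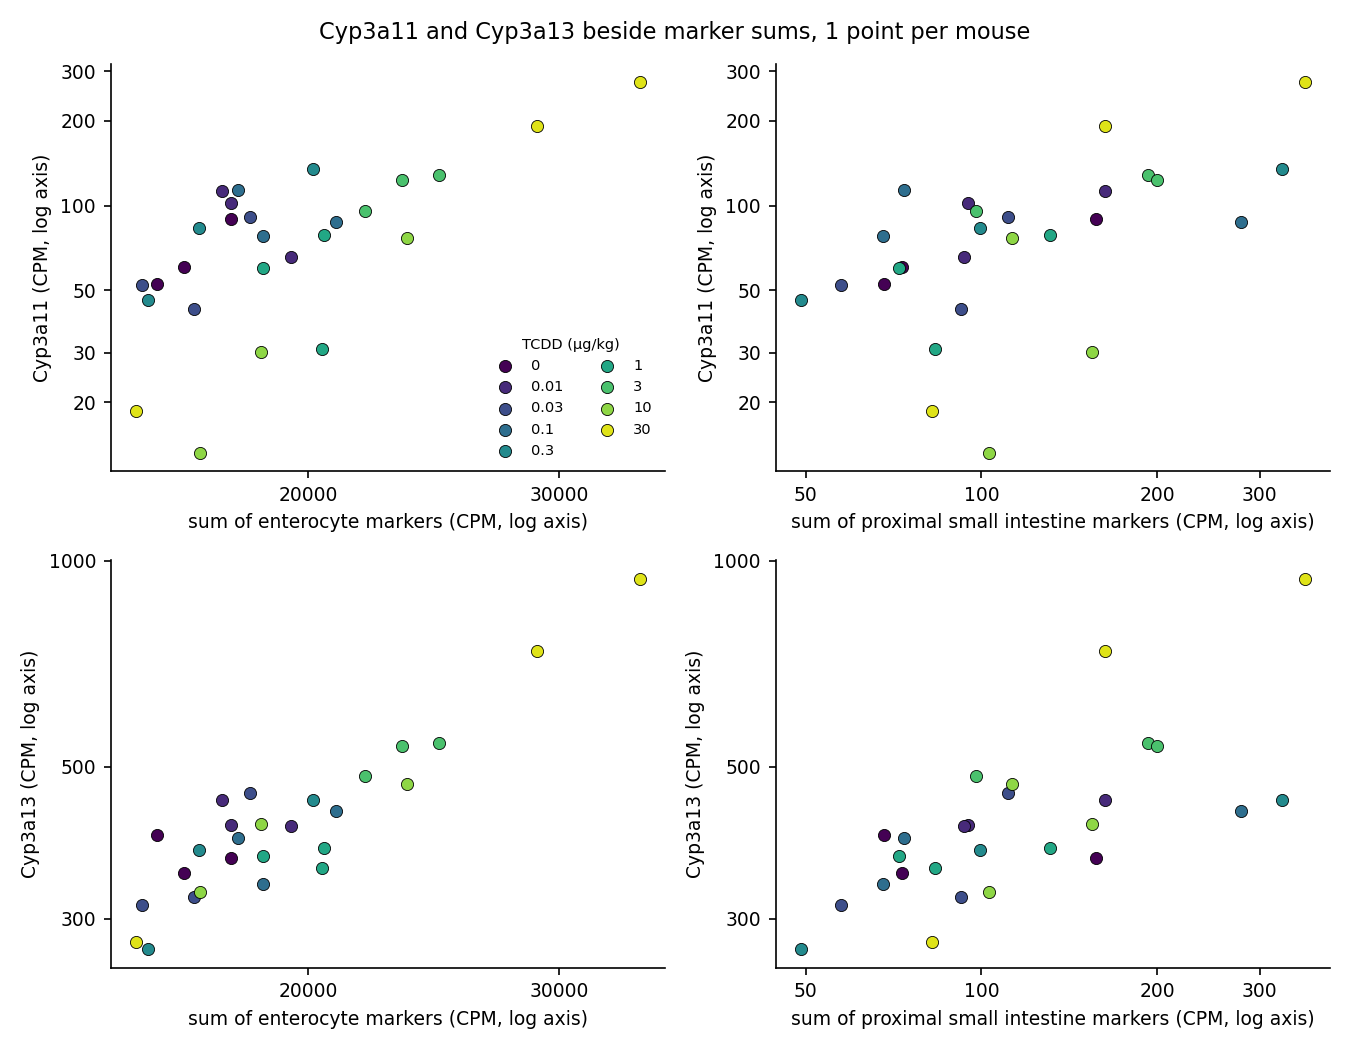
CPM of Cyp3a11 (upper) and Cyp3a13 (lower) on the y axes against the summed CPM of enterocyte markers (left) and proximal small intestine markers (right) on the x axes, all log scales, 1 point per mouse coloured by TCDD dose in µg/kg. The 2 points highest in Cyp3a13, at 941 and 737 CPM, are mice at 30 µg/kg with enterocyte sums of 34143 and 28954 CPM.

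Genes around PXR were taken from lists. Of 18 nuclear receptors and coregulators, 16 were tested and at 30 µg/kg 2 rose and 0 fell, a share near the 9.23% of all genes called, with a median log2 fold change of 0.15 against 0.02 over all genes. Nr1i3, which encodes the constitutive androstane receptor, a relative of PXR with overlapping targets, was at 2.39, 4.99 and 1.73 CPM under vehicle and 6.52, 14.6 and 5.54 CPM at 30 µg/kg, so each treated mouse lay above each vehicle mouse (log2 fold change 1.55, SE 0.476, edgeR adjusted p = 0.0278). Ppargc1a, a coactivator of nuclear receptors, was at 31.3, 37.5 and 24.5 CPM under vehicle and 55.0, 112 and 65.2 CPM at 30 µg/kg, also without overlap (log2 fold change 1.32, edgeR adjusted p = 0.00241). The other 14 genes tested, among them Ahr and the bile acid receptor gene Nr1h4, were called in no comparison.

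Of 22 genes known as PXR-induced in mouse, 19 were tested, and at 30 µg/kg 4 rose and 0 fell, where 9.23% of all genes were called (median log2 fold change 0.15 against 0.02 over all genes). Abcc2, an export pump for conjugates, was at 91.4, 145 and 98.2 CPM under vehicle and rose from 1 µg/kg, where it was at 426, 329 and 399 CPM (log2 fold change 1.79, edgeR adjusted p = 0.0299). It was at 304, 918 and 481 CPM at 30 µg/kg (log2 fold change 2.35, edgeR adjusted p = 0.000438), and each mouse lay above each vehicle mouse at every dose but 0.03 µg/kg, although the low doses averaged against vehicle did not pass the test (log2 fold change 0.81, edgeR adjusted p = 0.656). It was the single gene of this list called at 1, 3 and 10 µg/kg. Abcb1a, the P-glycoprotein exporter of drugs, went from 674, 793 and 707 CPM to 1210, 2570 and 1850 CPM at 30 µg/kg (log2 fold change 1.37, edgeR adjusted p = 0.00292). Cyp2b10, a P450 induced through PXR and the constitutive androstane receptor, was at 5.07, 7.92 and 2.84 CPM under vehicle and 7.31, 57.5 and 30.4 CPM at 30 µg/kg, where mouse 1 lay within the vehicle range (log2 fold change 2.59, SE 0.852, edgeR adjusted p = 0.0424). Ugt1a1, which glucuronidates bilirubin, rose 1.53-fold at 30 µg/kg (edgeR adjusted p = 0.00644). It was at 33.1, 38.9 and 26.9 CPM under vehicle and 38.6, 57.8 and 55.4 CPM at 30 µg/kg, where mouse 1 lay within the vehicle range. AhR also induces some of these genes, so the list does not single out PXR. The list was drawn up with earlier results of these data known, and its counts are no independent evidence.

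The partners that CYP3A enzymes need were tested as a list of 14 genes of electron supply and haem synthesis. Por, the reductase that feeds electrons to each microsomal P450, was the single one called. It was at 57.9, 70.9 and 68.1 CPM under vehicle and at 87.9, 188 and 114 CPM at 30 µg/kg, each above each vehicle mouse (log2 fold change 0.98, SE 0.204, edgeR adjusted p = 0.00218). The other 13 were called at 0 doses, and the median log2 fold change of the list at 30 µg/kg was 0.03. Of 5 AhR target genes, 4 rose at 30 µg/kg, where 9.23% of all genes were called. Cyp1b1 rose 64.5-fold, Ahrr 29.8-fold and Tiparp 1.82-fold, with edgeR adjusted p of 9.05e-11, 7.98e-17 and 0.000434, and Cyp1a1 rose at each dose from 1 µg/kg (edgeR adjusted p = 0.0247 at 1 µg/kg and 1.87e-09 at 30 µg/kg). Mouse 1 at 30 µg/kg, which had the lowest Cyp3a levels of its dose, had 1060 CPM of Cyp1a1 and was thus far above the vehicle mice, whose highest value was 0.211 CPM.

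**Figure D5:**
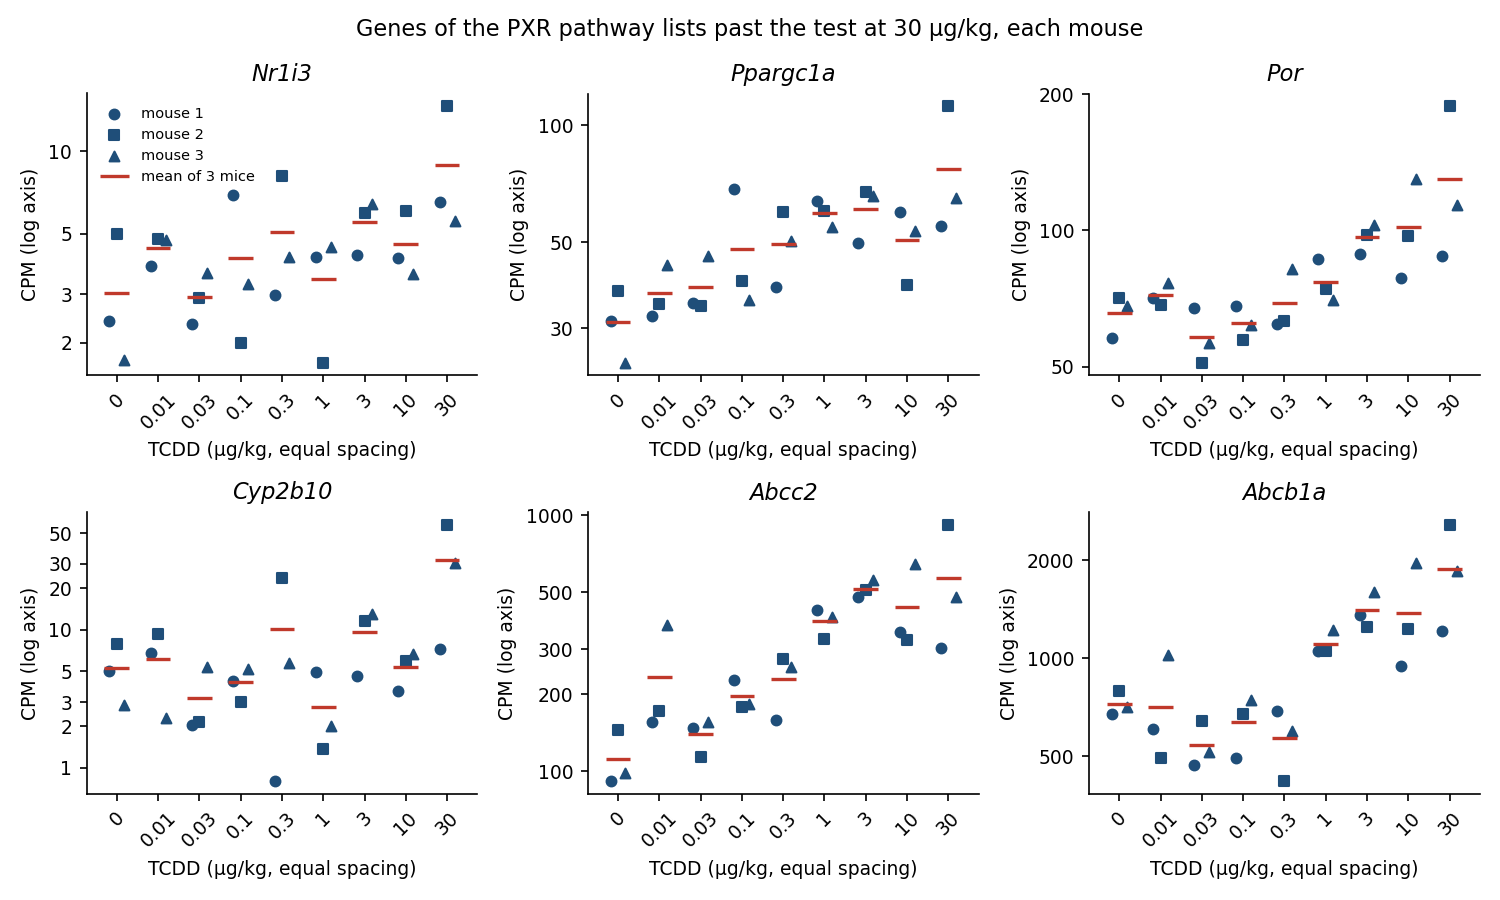
CPM (y axis, log scale) in each of 27 mice by TCDD dose in µg/kg (x axis, equal spacing) for Nr1i3, Ppargc1a, Por, Cyp2b10, Abcc2 and Abcb1a, with symbols for the 3 mice of a dose and a red line at their mean. Abcc2 lies above the vehicle mice in each mouse at every dose but 0.03 µg/kg, and Cyp2b10 at 30 µg/kg ranges from 7.31 to 57.5 CPM.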

How the data were processed

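RNA-Seq of scraped ileal epithelium was analysed in 27 mice, 3 per dose. The values deposited by the authors are raw read counts per Ensembl gene, with no normalization, 1 file per mouse. The submitters' processing notes name FastQC 0.11.3, Trimmomatic 0.33, TopHat2 2.1.0 with Bowtie2 2.2.6, SAMtools 1.2.0, HTSeq 0.6.1, DESeq and GRCm38. The counting options are not given in the sources used here. Between 44.48% and 49.52% of uniquely aligned reads matched no counted feature. Rows that name no gene were left out. Genes were named with GENCODE M21 by identifier (45143 of 46078).

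Groups came from the sample labels. Of 27 pairs of mice of the same dose, 0 agreed within sampling noise. Counts were filtered (filterByExpr, minimum count 10, minimum total 15), scaled by TMM and fitted over all 27 mice with edgeR 4.0.16 (robust quasi-likelihood) in R 4.3.3, with 9 groups and no covariate. The trend used the rank of the dose. Benjamini-Hochberg adjustment ran over all genes tested. Genes with an adjusted p of 0.05 or less that differed at least 1.5-fold were called. The study's P1(t) statistic was not recomputed, and the adjusted p took its place. Log2 CPM had a prior count of 2. The procedure was tested on simulated counts. Exact permutation tests, ratios and correlations used Python 3.11.15, scipy 1.17.1 and pandas 2.3.3, and figures matplotlib 3.10.9. Named genes are the 6 members, list genes called in a comparison, and the 3 genes most correlated with each member. A gene of the latter is not reported here. Members and lists were chosen with earlier results of these data known. Alternatives were DESeq2 1.42.0, other normalizations and filters, no fold minimum, fewer mice, library index use and leaving out each mouse. Liver data were not analysed here.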

Additional observations from a re-analysis of the deposited data

How the results depend on the processing

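The single call among the members, Cyp3a13 at 30 µg/kg, held with DESeq2 (log2 fold change 0.806, adjusted p = 0.0314), RLE factors, upper-quartile factors and at least 10 counts in every mouse. It was lost with library size only (0.638, edgeR adjusted p = 0.0788), no filter (0.774, 0.122), index use as a covariate (0.877, 0.403) and only the 6 mice compared (0.81, 0.271). Library size only lowered all genes at 30 µg/kg by a mean of -0.13 on the log2 scale. Leaving out any 1 mouse other than mouse 1 at 30 µg/kg also ended the call, with values from 0.448 to 1.14 over the 6 mice. Without mouse 1 at 30 µg/kg, Cyp3a11 at 30 µg/kg (1.76), Cyp3a13 for 30 against 3 µg/kg (0.661) and the Cyp3a13 trend (0.0836) passed the test, and without vehicle mouse 3 the Cyp3a13 trend (0.0762) did.

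Counts over all genes moved more. For the low doses, the calls numbered 1 with upper-quartile factors, 1 with library size only and 2 with no filter on low counts. With library index use as a covariate, the calls numbered 22 for 1 µg/kg, 1 for 3 µg/kg, 35 for 10 µg/kg, 459 for 30 µg/kg, 72 for any difference and 141 for the trend. With no fold minimum, the calls numbered 141 for 1 µg/kg, 273 for 3 µg/kg, 629 for 10 µg/kg, 2942 for 30 µg/kg and 4310 for the trend. With only the mice compared fitted, the calls numbered 330 for 3 µg/kg, 671 for 30 µg/kg and 14 for 30 against 3 µg/kg. With only the first index use, the calls numbered 12 for the trend. With only the second index use, the calls numbered 229 for the trend. With DESeq2, the calls numbered 11 for low doses, 167 for 1 µg/kg, 276 for 3 µg/kg, 245 for 30 against 3 µg/kg and 2474 for any difference. Without 1 mouse at a time, the counts ran from 0 to 4 for low doses, 4 to 104 for 1 µg/kg, 61 to 206 for 3 µg/kg, 189 to 431 for 10 µg/kg, 851 to 2477 for 30 µg/kg, 934 to 2958 for any difference and 44 to 665 for 30 against 3 µg/kg.

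Signs that turned belonged to uncalled estimates. With library size only, the estimate was -0.00718 for Cyp3a59 (trend). With library index use as a covariate, the estimate was 0.216 for Cyp3a11 at 1 µg/kg, 0.0329 for Cyp3a13 at 1 µg/kg, -0.0683 for Nr1i2 at 1 µg/kg, 0.0269 for Cyp3a11 at 10 µg/kg, 0.0624 for Cyp3a44 at 30 µg/kg, -0.501 for Cyp3a59 at 30 µg/kg, -1.94e-06 for Nr1i2 at 30 µg/kg and -0.112 for Cyp3a59 (trend). With only the first index use, the estimate was -0.0157 for Cyp3a13 (trend), -0.184 for Cyp3a59 (trend) and -0.00581 for Nr1i2 (trend). Without 1 mouse at a time, log2 estimates ran from -0.00717 to 0.0996 for Cyp3a13 at the low doses, -0.249 to 0.0298 for Cyp3a25 at the low doses, -0.566 to 0.0315 for Cyp3a11 at 1 µg/kg, -0.059 to 0.0431 for Cyp3a13 at 1 µg/kg, -0.0241 to 0.252 for Cyp3a25 at 1 µg/kg, -0.0265 to 0.102 for Nr1i2 at 1 µg/kg, -0.000744 to 0.489 for Cyp3a44 at 3 µg/kg, -0.232 to 0.249 for Cyp3a59 at 3 µg/kg, -0.0158 to 0.00652 for Nr1i2 at 3 µg/kg, -0.0133 to 0.258 for Cyp3a13 at 10 µg/kg, -0.0768 to 0.00625 for Nr1i2 at 10 µg/kg, -0.701 to 0.723 for Cyp3a59 at 30 µg/kg, -0.0632 to 0.0273 for Cyp3a59 (trend), -0.136 to 0.984 for Cyp3a11 for 30 against 3 µg/kg, -0.0376 to 0.661 for Cyp3a13 for 30 against 3 µg/kg, -0.0417 to 0.535 for Cyp3a25 for 30 against 3 µg/kg and -0.685 to 0.742 for Cyp3a59 for 30 against 3 µg/kg. Of 633 alternative estimates for the members, 586 kept direction and side of the threshold. Nearly all of these were uncalled estimates that stayed uncalled, since the main fit held a single call. That call was kept in 4 of 8 other settings and in 1 of 6 fits without 1 mouse. DESeq2 estimates with no adjusted p, such as those of Cyp3a44 and Cyp3a59 at the low doses, were counted as kept by direction alone. Where an estimate turned or a call was lost, the cause was not tested. No paired analysis was possible because the sample labels give no replicate number that groups share. Depth limited Cyp3a59, with 2 to 24 reads per mouse.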
